A study of Arabidopsis thaliana with 8 samples.

Results

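The genes described here are 10 *Arabidopsis thaliana* genes for calcium sensors: 9 calmodulin-like (CML) genes, several of them known as touch-inducible, and *PINOID-BINDING PROTEIN1* (*PBP1*). They are 10 of the 37573 genes in the count table and were chosen by name, with the differences between dexamethasone (DEX) and mock libraries already known, so their DEX against mock values are given as a description without a test. The members are *CML38* (AT1G76650), *CML37* (AT5G42380), *CML39* (AT1G76640), *CML41* (AT3G50770), *CML42* (AT4G20780), *CML9* (AT3G51920), *CML12* (AT2G41100, also *TOUCH3* or *TCH3*), *CML24* (AT5G37770, also *TCH2*), *CML23* (AT1G66400) and *PBP1* (AT5G54490).

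RNA was taken from hypocotyls of 4-week-old plants that carried *SMXL7pro:SMXL7d53-GR*, a strigolactone-resistant version of SMXL7 fused to the glucocorticoid receptor (GR) and driven by the promoter of *SMXL7* itself. Plants grown first in short and then in long days were watered with 15 µM DEX (4 libraries) or with the same volume of DMSO (mock, 4 libraries) and were harvested 5 h later, which asks which transcripts change once the fusion protein is made active. The labels give the genotype as WT with the transgene in all 8 samples. No plants without the transgene were among the samples used here, so an effect of DEX itself and an effect of the fusion protein cannot be told apart. The labels also do not say whether replicates were separate plants or pools, so p-values measure the spread between these samples, which may be technical.

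The libraries held between 47976811 and 85953231 counts. The first principal component, with 66.7% of the variance, separated the treatments. Reads of *SMXL7* (AT2G29970), in which the resident gene and the transgene cannot be told apart, numbered 33487 ± 1913 in mock and 24703 ± 257 in DEX libraries (normalised counts, mean ± SD, n = 4). The 5 cambium markers were present, and of these *ATHB8* was called higher (log2 fold change 0.78, adjusted p = 1.1e-06), with *WOX4*, *PXY*, *ANT* and *SMXL5* between -0.21 and 0.15. Of 3 root markers, 0 had enough counts to be tested. Among 3 developing vessel, 2 periderm and 2 phloem markers, 0 were called in either direction, with log2 fold changes between -0.45 and 0.28. Markers of some other cell types moved with the treatment. All 5 tested genes of 7 listed for the stomatal lineage fell. That list summed to 1349.6 to 1976.5 in mock and 598 to 867 in DEX. Of 3 leaf mesophyll genes, 2 were called lower and *RBCS1A*, with a log2 fold change of -0.45 (adjusted p = 0.00363), was under the fold change threshold, with sums of 98793 to 139244 and 69122 to 85459.8. The shoot meristem markers summed to 7511.7 to 8411.6 in mock and 10979 to 11367 in DEX, nearly all of it from *STM*, whose log2 fold change of 0.53 (adjusted p = 2.1e-06) was under the threshold as well. Their part in the values below was not tested. In bulk tissue, fewer cells of a type and less RNA per cell cannot be told apart.

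Calcium ions act as second messengers in plant cells, where touch, wounding, cold and hormones can each raise cytosolic calcium. EF-hand proteins bind the ion in a short loop that begins and ends with acidic residues, change shape, and then bind other proteins. Calmodulins and CMLs are such sensors without an enzymatic domain, whereas calcium-dependent protein kinases (CPKs) join the sensor to a kinase, and calcineurin B-like (CBL) proteins act through partner kinases. The *TCH* genes were first found as transcripts that accumulate after plants are touched, and TCH3 and PBP1 bind the kinase PINOID, a regulator of auxin transport.

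The coding sequences of the members differ in how many matches to an EF-hand loop pattern they hold. Loops that depart from the pattern are missed, and the loops below are numbered by match. A pattern of 12 codons for the loop, searched in the translated RefSeq coding sequences (TAIR10.1), was found 3 times each in *CML38*, *CML37*, *CML39*, *CML41* and *CML42*, 4 times each in *CML24* and *CML23*, 2 times in *CML9*, 6 times in *CML12* and 1 time in *PBP1*. The coding sequences ranged from 127 codons for *PBP1* to 324 for *CML12*. The coding part lay in 1 exon in 8 members and was split over 4 exons in *CML9* and in *CML12*. The loops below are shown because they set the relatives side by side: the third loop of *CML38* and *CML39*, the fourth of *CML24* and *CML23*, and the only one of *PBP1*, each 36 bases long, 5′ to 3′ on the coding strand, with the first and last codon in capitals. The *CML38* loop lies at chr1:28766930-28766965 and that of *CML39* at chr1:28765345-28765380, both on the minus strand of TAIR10.1. The *CML24* loop lies at chr5:14999111-14999146 and the *CML23* loop at chr1:24770892-24770927, both on the minus strand, and the *PBP1* loop at chr5:22121710-22121745 on the plus strand.
CML38: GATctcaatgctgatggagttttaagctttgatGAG
CML39: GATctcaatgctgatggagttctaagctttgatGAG
CML24: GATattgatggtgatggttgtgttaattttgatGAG
CML23: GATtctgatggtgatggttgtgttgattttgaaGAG
PBP1: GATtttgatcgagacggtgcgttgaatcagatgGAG
The loops of *CML38* and *CML39* differed at 1 of 36 bases and those of *CML24* and *CML23* at 4. Over the whole coding sequence, the closest pair was *CML38* with *CML39* (78.1% identical residues and 83.4% identical bases), followed by *CML24* with *CML23* (77.1% and 81.2%). *CML37* shared 53.2% of aligned residues with *CML39* and 51.4% with *CML38*. *CML9* shared 52.3% with *CML12*, over an alignment that covers 46.6% of the longer protein.

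The members lay on all 5 chromosomes of TAIR10.1. *CML39* (chr1:28765254-28765866) and *CML38* (chr1:28766750-28768138) are tandem neighbours on the minus strand with 883 bases between them. *CML37* lies at chr5:16942447-16943820, *CML41* at chr3:18873911-18874836, *CML42* at chr4:11133095-11134075 and *CML9* at chr3:19267951-19269658. *CML12* lies at chr2:17137037-17139700, *CML24* at chr5:14997514-14999619, *CML23* at chr1:24770419-24771393 and *PBP1* at chr5:22121102-22122122. Reads that overlapped more than 1 gene were left out of the counts and strand was not used. This touches *CML24*, with 20.9% of its exon bases shared with an overlapping gene, *CML12* (20.2%) and *PBP1* (12.8%), where reads from the shared bases were not counted. The reads of the pairs *CML38* with *CML39* and *CML24* with *CML23* can be told apart where they differ: the best match between the exons was 81.4% over 467 bases in the first pair and 78.6% over 514 bases in the second.

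Levels below are counts normalised by trimmed mean of M-values (TMM), and fold changes are on the log2 scale with their standard error (SE). A gene was called when its Benjamini-Hochberg adjusted p in edgeR's quasi-likelihood test was under 0.01, it changed by more than 1.5 times and its mean normalised count was over 50. All 10 members had enough counts to be tested, and 9 had a mean over 50. Of the 10, 7 were called higher in DEX, beside 4.64% of the 21289 genes tested, and 0 were called lower, beside 1.81%. In 9 of the 10 the lowest DEX library was above the highest mock library, beside 16.2% of all genes tested. Since the members were chosen with this contrast known, nothing is read from these counts. The median log2 fold change was 1.21 over the members and -0.006 over all genes tested. The 10 genes together summed to 13970 ± 1215 in mock and 38291 ± 2570 in DEX libraries (n = 4).

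**Figure D1:**
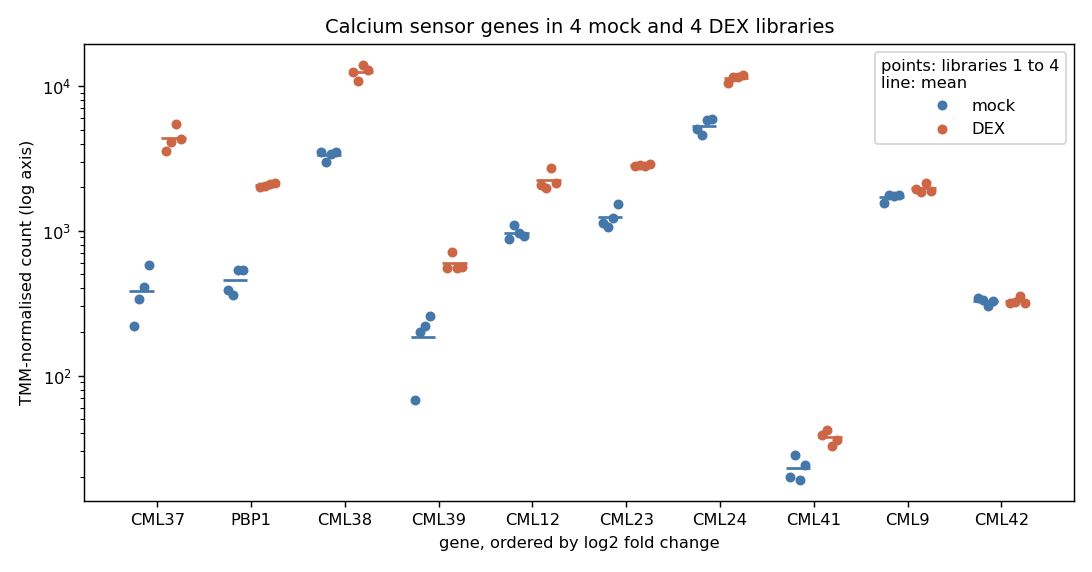
TMM-normalised counts of the 10 genes (log axis), ordered by log2 fold change, with a point for each of the 4 mock (blue) and 4 DEX (orange) libraries and a line at the mean. The points of the treatments are apart in 9 genes and overlap in *CML42*, and *CML39* has 1 mock library at 67.7, below the other mock libraries.

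*CML37*, *CML38* and *CML39* form 1 branch of close relatives and had 3 of the 4 largest fold changes. CML38 is known in *Arabidopsis* from cytosolic granules formed at low oxygen, and transcripts of the branch accumulate after wounding. *CML37* was at 220.3, 338, 407 and 577 in mock libraries 1 to 4 and at 3581, 4073, 5459.7 and 4268 in DEX libraries 1 to 4. The lowest DEX library was far above the highest mock library, and the mock libraries were spread 2.62 times from lowest to highest. The log2 fold change of *CML37* was 3.53 (SE 0.29), or 11.5 times, the largest among the members. *CML38* was at 3519.7, 2985, 3367 and 3524 in mock and at 12436, 10888.5, 14008 and 12942 in DEX libraries. The replicates were close in both treatments, and the groups did not overlap. Its log2 fold change was 1.91 (SE 0.08), from 3349 ± 253 to 12569 ± 1298 (mean ± SD, n = 4), the largest gain in counts of any member.

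*CML39*, the tandem neighbour of *CML38*, was far less abundant. It was at 67.7, 201, 219 and 257 in mock libraries 1 to 4 and at 557, 709.8, 552 and 566 in DEX libraries 1 to 4. Mock library 1 lay well below the other mock libraries, and DEX library 2 above the other DEX libraries. The log2 fold change of *CML39* was 1.72 (SE 0.34). Its call was not stable: it was kept without mock replicate 1, where the log2 fold change was 1.41 (SE 0.12), and was lost when any 1 of the other 7 libraries was left out, with fold changes between 1.62 and 1.91.

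*CML24* and *CML23* are a closely related pair with roles in flowering time and nitric oxide levels, and *CML24* is the gene found as *TCH2*. *CML24* was at 5042, 4585, 5821 and 5873 in mock and at 10515, 11476, 11474.5 and 11832 in DEX libraries. The groups were well apart, with a log2 fold change of 1.09 (SE 0.08). *CML23* was at 1138, 1066, 1227 and 1526 in mock and at 2804, 2863, 2779 and 2911 in DEX libraries. The DEX libraries of *CML23* were within a coefficient of variation of 2.1%, the mock libraries within 16.3%. Its log2 fold change was 1.20 (SE 0.09).

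*CML12*, the gene found as *TCH3*, and *PBP1* encode sensors that bind PINOID. *CML12* was at 874, 1096, 959 and 926 in mock and at 2082, 1979, 2698 and 2146 in DEX libraries. DEX library 3 was the highest, and the groups were apart, with a log2 fold change of 1.21 (SE 0.10). *PBP1*, the shortest member with its single recognised loop, was at 389, 361, 538 and 539.95 in mock and at 1995, 2024, 2107 and 2123 in DEX libraries. The mock libraries fell into a lower and a higher pair, whereas the DEX libraries were within 3.0% of each other by coefficient of variation. The log2 fold change of *PBP1* was 2.17 (SE 0.12), the second largest among the members.

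The 3 members that were not called differed in why. *CML42*, known for a role in trichome branching and in defence against insects, was at 341, 331, 304 and 329 in mock and at 316, 321, 355 and 318 in DEX libraries. The groups overlapped, and the log2 fold change was 0.01 (SE 0.07), with -0.04 when counts were scaled by library totals alone. *CML9*, a CML linked to abscisic acid responses, was at 1567, 1756, 1742 and 1774 in mock and at 1956, 1865, 2148 and 1881 in DEX libraries. Its groups did not overlap, but the log2 fold change of 0.20 (SE 0.06) lay under the fold change threshold. *CML9* also missed the threshold on the adjusted p. *CML41*, whose product has been placed at plasmodesmata, was at 19.96, 28.3, 19.0 and 24.1 in mock and at 39.1, 42.4, 32.7 and 35.9 in DEX libraries. The groups did not overlap and the log2 fold change was 0.75 (SE 0.20), but with 20 to 44 raw counts per library its mean was below the minimum of 50, and it missed the threshold on the adjusted p as well.

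Divided by the exon bases that no other gene shares, since reads on shared bases were not counted, the members spanned a wide range of levels. Exon bases were pooled over all annotated transcripts, 7 for *CML12*, 3 for *CML38* and 2 for *CML24*. Bases used only in a rarer transcript enlarge the divisor, so the levels and places of these genes may be too low. In mock libraries *CML38* (3373 ± 255 normalised counts per kilobase of unshared exon) and *CML24* (3354 ± 394) were highest and did not differ beyond their spread. Over all exon bases *CML24* would stand at 2655 ± 312, below *CML38*, so that their order depends on this divisor. *CML9* (1665 ± 93.6) and *CML23* (1271 ± 207) came next, then *PBP1* (514 ± 107) and *CML12* (474 ± 46.6), which overlapped. *CML42* (333 ± 16.2), *CML39* (303 ± 134) and *CML37* (281 ± 109) could not be ordered, and *CML41* (24.7 ± 4.62) was lowest. In DEX libraries *CML38* (12657 ± 1307) and *CML24* (7127 ± 356) were still the highest 2. *CML37* moved from place 9 to place 3 (3163 ± 580.0), next to *CML23* (2912 ± 60.8), from which it did not differ beyond its spread. *PBP1* stood at 2317 ± 70.1 and *CML9*, at place 3 in mock, at place 6 with 1911 ± 126. Below them stood *CML12* (1095 ± 158), *CML39* (972 ± 124), *CML42* (334 ± 18.6) and *CML41* (40.5 ± 4.5). Of the summed counts of the 10 genes, *CML24* took 38.1% in mock and 29.6% in DEX libraries, *CML38* 24.0% and 32.8%, and *CML37* 2.72% and 11.29%.

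The spread between replicates also enters the test behind the DEX against mock differences that were known when the members were chosen. It is therefore given as a description only. The median coefficient of variation over the members was 14.0% in mock and 8.4% in DEX libraries, beside a median of 5.5% in both treatments over the 19157 genes with a mean over 50. In 6 of the 10 the mock libraries were the more variable. *CML39* (44.2%) and *CML37* (38.7%) varied most among mock libraries, and *CML42* (4.9%) least. In log2 units from the mean of the same treatment, 2 of 10 members were above the mean in mock library 1 and 9 of 10 in mock library 4. Of the DEX libraries, library 1 had 1 of 10 members above the mean and library 3 had 7 of 10.

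**Figure D2:**
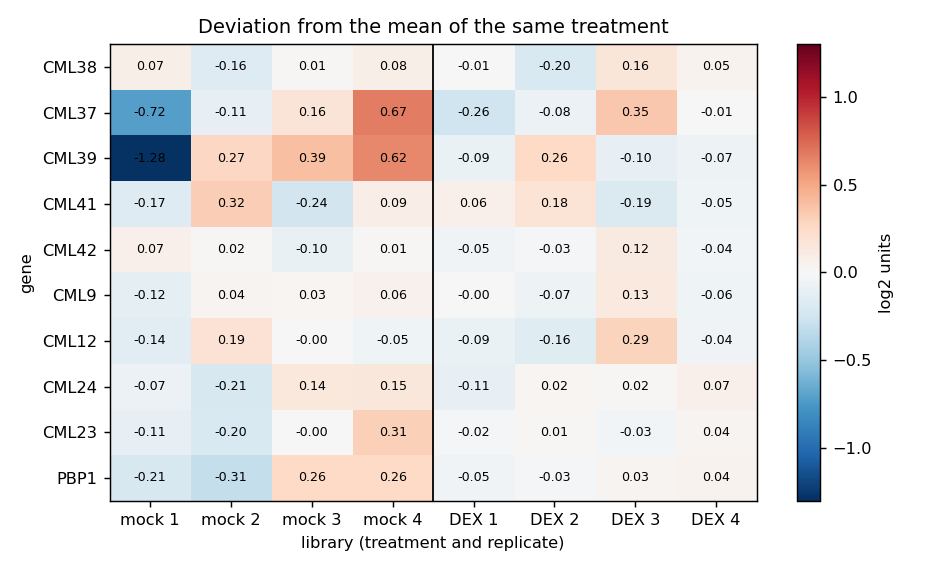
Deviation of each gene (rows) in each library (columns) from the mean of its treatment, in log2 units, printed in each cell and shown from blue (below) to red (above). *CML37* and *CML39* are low in mock 1 (-0.72 and -1.28) and high in mock 4 (0.67 and 0.62).

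After the treatment means were removed, the deviations of some members ran together over the 8 libraries. The highest Pearson correlations were 0.939 for *CML24* with *PBP1*, 0.813 for *CML9* with *CML12*, 0.812 for *CML23* with *PBP1*, 0.801 for *CML37* with *CML39* and 0.789 for *CML24* with *CML23*. The tandem pair *CML38* and *CML39* had -0.317, and the lowest value was -0.764 for *CML38* with *CML41*. Over the 45 pairs the median was 0.259, with 29 positive and 11 over 0.5, and it stayed between 0.202 and 0.393 when any 1 library was left out. These values share libraries and depth and are a description of 8 points. *CML37* followed the mean of the other members most closely (0.972) and *CML42* least (-0.186). *CML38* (0.033) and *CML41* (-0.007) did not follow it either. Deviations were averaged without scaling, so *CML37* and *CML39*, which varied most among mock libraries, weigh heavily in such means.

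Outside the members, the 5 genes whose deviations were most like the mean deviation of the 10 were AT3G02840, an ARM repeat protein (correlation 0.992), *JAZ8*, a jasmonate repressor gene (0.987), AT2G26270, a BRCT domain protein (0.980), AT2G25690, a DUF581 family protein (0.977), and *RRTF1*, an ethylene response factor gene (0.972). Over the 19148 genes compared, the median correlation was -0.015, and the 5th and 95th percentiles were -0.581 and 0.642. Of these 5 genes, the top of a ranking over 8 libraries, 3 were called higher in DEX, beside 4.64% of all genes tested. AT3G02840 rose by 3.19 (SE 0.18, adjusted p = 5.3e-06), from 303 ± 86.5 to 2730.2 ± 169.9 counts. *JAZ8* rose by 3.0 (SE 0.29, adjusted p = 2.4e-04) and *RRTF1* by 2.59 (SE 0.17, adjusted p = 1.7e-05). AT2G26270, at -0.06 (SE 0.05), and AT2G25690, at 0.32 (SE 0.06), were not called.

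The promoters of *CML24*, *CML23* and *CML9* are printed because they alone among the members hold the letters ACGCG or, on the other strand, CGCGT, the core bound by calmodulin-binding transcription activators (CAMTAs). Each sequence is the 300 bases before the annotated start of the gene in the RefSeq annotation of TAIR10.1, 5′ to 3′ on the strand of the gene, with the matches in capitals. The *CML24* sequence lies at chr5:14999620-14999919, that of *CML23* at chr1:24771394-24771693 and that of *CML9* at chr3:19269659-19269958, all read from the minus strand.
CML24: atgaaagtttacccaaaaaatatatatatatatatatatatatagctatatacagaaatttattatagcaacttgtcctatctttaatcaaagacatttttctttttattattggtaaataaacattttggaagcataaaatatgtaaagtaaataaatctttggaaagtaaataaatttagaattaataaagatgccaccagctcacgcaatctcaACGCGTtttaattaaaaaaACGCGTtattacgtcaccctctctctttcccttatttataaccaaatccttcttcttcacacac
CML23: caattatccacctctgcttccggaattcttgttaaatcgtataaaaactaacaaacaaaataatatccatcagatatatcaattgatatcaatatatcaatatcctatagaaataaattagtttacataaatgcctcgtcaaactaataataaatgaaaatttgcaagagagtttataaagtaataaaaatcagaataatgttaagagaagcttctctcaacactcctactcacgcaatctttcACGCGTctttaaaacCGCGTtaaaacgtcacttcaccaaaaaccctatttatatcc
CML9: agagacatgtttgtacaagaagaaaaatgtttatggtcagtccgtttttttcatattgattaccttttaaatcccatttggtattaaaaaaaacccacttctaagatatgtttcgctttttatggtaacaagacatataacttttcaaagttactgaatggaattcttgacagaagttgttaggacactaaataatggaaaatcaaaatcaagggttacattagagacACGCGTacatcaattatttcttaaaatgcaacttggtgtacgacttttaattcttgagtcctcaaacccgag
*CML24* has 2 matches, which begin 83 and 64 bases before the start, *CML23* has 2 at 56 and 41 bases, and *CML9* has 1 at 72 bases. Overlapping matches on both strands, as in ACGCGT, were counted as 1. The letters were found in 8.6% of the 20377 promoters of tested protein-coding genes, and 2 or more matches in 1.2%. The fold changes of the 3 genes were 1.09, 1.20 and 0.20 on the log2 scale, and *CML37*, *PBP1* and *CML38*, with the largest fold changes, have no match in this window.

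**Figure D3:**
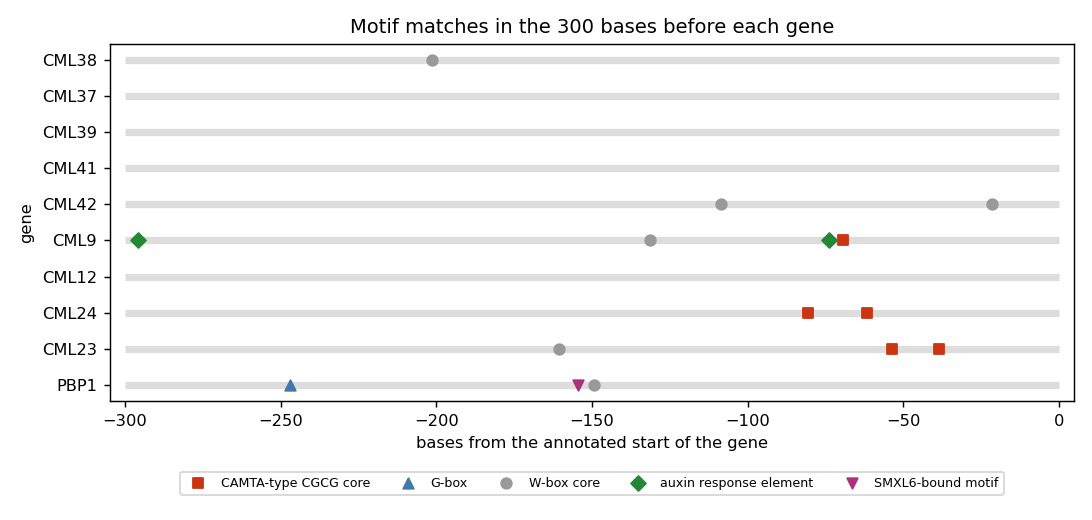
Matches to 5 short motifs in the 300 bases before the annotated start of each of the 10 genes, with the distance from the start in bases on the x axis. Matches to the CAMTA-type core (red squares) lie within 83 bases of the start in *CML24*, *CML23* and *CML9*, and *CML37*, *CML39*, *CML41* and *CML12* have no match to any of the 5 motifs.

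Other motifs were searched on both strands in the same windows. The W-box core TTGAC was found in *CML38*, *CML42*, *CML9*, *CML23* and *PBP1*, 5 of 10 members, and in 50.3% of all promoters. The G-box CACGTG was found in *PBP1* (7.9% of promoters), the auxin response element TGTCTC in *CML9* (12.8%), and ATAACAA, described for the *SMXL7* relative *SMXL6*, in *PBP1* (13.8%). In *CML9* 1 of the TGTCTC matches shares a base with the CAMTA-type match, and in *PBP1* the ATAACAA match shares a base with the W-box core. A match is a run of letters and was not tested as a binding site.

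Apart from the tandem pair itself, most genes beside the members were not called. *CAM2*, the calmodulin gene found as *TCH1*, lies 482 bases from *CML12* on the same strand and rose by 0.76 on the log2 scale (SE 0.07, adjusted p = 3.7e-06), from 637 ± 62.0 to 1076 ± 48.3, with 47.6% of its exon bases shared with other genes. AT2G41090, an EF-hand gene on the other side of *CML12*, was not called (0.29, adjusted p = 0.0413). The calmodulin genes *CAM1*, beside *CML24*, and *CAM4*, beside *CML23*, had log2 fold changes of 0.03 (adjusted p = 0.578) and 0.04 (adjusted p = 0.512). *GATL2*, beside *CML41*, was called higher (0.99, adjusted p = 5.2e-07), and *HSFA7A*, a heat shock factor gene beside *CML9*, was called lower, from 754 to 391 (-0.95, adjusted p = 5.6e-06). *FQR1*, beside *PBP1*, at 0.55 (adjusted p = 3.1e-06), was under the fold change threshold, and *MYB90*, beside *CML23*, at -1.63 (adjusted p = 0.00624), under the minimum count. AT1G76660 and AT1G76630 beside the tandem pair, AT5G42370 and *SPP* beside *CML37*, AT4G20770 beside *CML42*, AT3G50780 beside *CML41*, AT3G51930 beside *CML9* and AT5G37750 beside *CML24* were not called, with log2 fold changes between -0.04 and 0.42, and AT4G20790 beside *CML42* and AT5G54480 beside *PBP1* had 0 counts.

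The rest of the CML family was read as a background to the members, from a list of 50 loci that holds 9 of them. Of the 41 other loci, 26 were tested, 5 were called higher (19.2%, beside 4.64% of all genes) and 0 lower, and their median log2 fold change was 0.17. DESeq2 called the same numbers. At an unadjusted p under 0.05 in edgeR, 10 were higher and 3 lower. The share of all genes at that unadjusted p was not computed, so nothing is read from these numbers. The other 15 were not tested, 9 of them with 0 counts in every library, and 5 of these 9 share over 95% of their exon bases with another gene, so that their reads could not be counted. RefSeq describes all 5 called loci as calcium-binding EF-hand family proteins.

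AT3G29000 was at 187, 211, 278 and 242 in mock and at 772, 673, 843 and 797 in DEX libraries, a rise of 1.74 (SE 0.12, adjusted p = 6.6e-07). AT3G10300 rose from 2932 ± 206 to 7079.7 ± 971 (1.27, SE 0.09, adjusted p = 5.9e-06) and AT3G25600 from 347 ± 29.9 to 605 ± 43.2 (0.80, SE 0.08, adjusted p = 8.1e-06). AT1G18210 was just past the threshold (0.59, SE 0.06, adjusted p = 9.2e-06). AT3G01830 had the largest value, from 31.7 ± 18.4 to 500.4 ± 135 (4.04, SE 0.35, adjusted p = 5.5e-05), but shares 58.1% of its exon bases with overlapping genes, and its value is uncertain. In the other direction, AT1G24620 fell by 1.83 (SE 0.24, adjusted p = 9.7e-05) on counts below the minimum. *CML43*, the nearest match of *CML42* in exon sequence (75.6% over 636 bases), was not called (-0.18, adjusted p = 0.643).

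**Figure D4:**
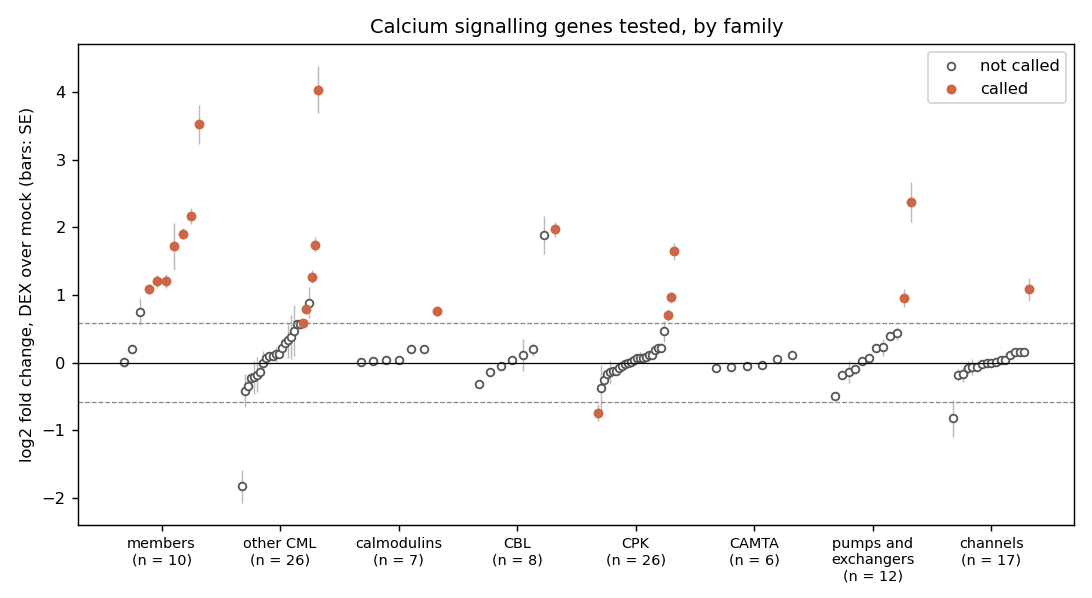
Log2 fold change of DEX over mock with its SE for the 10 members and for the other tested genes of 7 calcium signalling families, each sorted by value, with called genes filled and the threshold of 1.5 times in either direction dashed. Called genes are 7 of 10 among the members, 5 of 26 other CML loci and 1 of 7 calmodulins, and *CPK2*, among the CPKs, is the 1 gene called lower.

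Over 8 lists outside the members, that of the partner and relatives of *PBP1* included, 14 of 105 tested genes were called higher (13.3%, beside 4.64% of all genes) and 1 lower (1.0%, beside 1.81%), with a median log2 fold change of 0.06. Without the CML family, 9 of 79 were called higher (11.4%). The lists, that of the CML family included, were chosen with earlier results of these data known, so nothing is read from these shares. Of 7 calmodulins, *CAM2* was called, and the 6 others lay between 0.00 and 0.20. Nearly identical calmodulin genes share reads, and reads with several places in the genome were left out, so their levels are uncertain.

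Among the sensors with a partner or a kinase, *CBL1* was at 669, 619.9, 683 and 736 in mock and at 2342, 2311, 3297 and 2658 in DEX libraries. It rose by 1.97 (SE 0.12, adjusted p = 2.1e-06) and was the 1 called gene of 8 CBLs tested. *CPK28* rose from 2693 ± 240.4 to 8414 ± 1493 (1.65, SE 0.13, adjusted p = 2.2e-05), the largest rise of 26 CPKs. *CPK32* (0.97, adjusted p = 1.3e-05) and *CPK15* (0.70, adjusted p = 4.4e-05) rose as well, and *CPK2* fell by 0.74 (adjusted p = 8.1e-04). The 6 CAMTA genes had log2 fold changes between -0.08 and 0.11, and 0 were called by edgeR and 0 by DESeq2. At an unadjusted p under 0.05, 1 was higher, again without the share over all genes.

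Among 12 calcium pumps and exchangers, 2 were called higher. *ACA13* (AT3G22910) was at 86.3, 109, 144 and 149 in mock and at 466, 547, 969.6 and 525 in DEX libraries, a rise of 2.37 (SE 0.29, adjusted p = 5.3e-04). *ACA1* rose by 0.95 (SE 0.14, adjusted p = 9.6e-04). Of 17 channel genes, AT1G11960, a member of the ERD family, was the 1 called (1.08, SE 0.17, adjusted p = 0.00199).

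The genes around PINOID and touch gave a further comparison. *PID*, the gene of the kinase that PBP1 and TCH3 bind, went from 1538 ± 158 to 1970.3 ± 79.3, and its log2 fold change of 0.36 (SE 0.07, adjusted p = 0.00124) was under the threshold. The EF-hand genes AT4G27280 and AT2G46600, listed as relatives of *PBP1*, differed: AT4G27280 rose from 6164 ± 1238 to 18808 ± 1151 (1.61, SE 0.13, adjusted p = 3.4e-05), and AT2G46600, at 0.39 (adjusted p = 6.8e-04), was not called. *TCH4*, a touch gene that encodes a xyloglucan endotransglucosylase/hydrolase of the cell wall and no calcium sensor, was at 5293, 5637, 7028 and 7689 in mock and at 23445, 26303, 31928 and 26882 in DEX libraries. All its DEX libraries were above all mock libraries, and it rose by 2.08 (SE 0.14, adjusted p = 1.2e-05).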

How the data were processed

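PolyA RNA from 8 hypocotyl samples was sequenced. The authors mapped reads with STAR 2.7.8a, keeping reads with a single place in the genome (TAIR10 per the labels), and deposited raw counts per gene, made with summarizeOverlaps in union mode without strand. The annotation version is not given in the sources used here. A second table holds signal values, which the authors deposited as counts divided by DESeq2 1.34.0 size factors. It served only for comparing factors. The members and lists were chosen with earlier results of these data known.

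DEX and mock were compared with edgeR 4.0.16 (R 4.3.3): quasi-likelihood test, TMM, filterByExpr, robust, no replicate block, over 21289 genes, with the thresholds of the study's methods. SE was derived from the F statistic of each gene. The biological coefficient of variation was 0.0662. Replicate pairs differed by more than sampling noise. The fits were tested on simulated data. Named genes were all members, called list genes, neighbours, and the 5 genes with deviations (log2 of normalised count + 1) most like those of the members. Numbers of the replicates did not pair the samples.

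Identity used Biopython 1.88 and blastn 2.17.0. Alternatives were DESeq2 1.42.0, other scalings and filters, a replicate block and leaving out each library.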

Additional observations from a re-analysis of the deposited data

Results flagged for a closer look

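In 7 of 74 groups of 4 libraries (37 genes in 2 treatments), 1 library stood far from the other 3 by Dixon's test, which chance does in about 1 of 20 groups. Among the members, *CML39* in DEX library 2 was at 709.8 with the others between 552 and 566, *CML42* in DEX library 3 was at 355 with the others between 316 and 321, and *CML9* in mock library 1 was at 1567 with the others between 1742 and 1774. Among the listed genes, AT3G01830 (703 beside 423 to 438) and *ACA13*, AT3G22910 (969.6 beside 466 to 547), were high in DEX library 3. The stomatal lineage gene *SPCH* in DEX library 1 was at 232 beside 166 to 176, and *SMXL7* in DEX library 2 was at 25084 beside 24525 to 24613. All values are normalised counts.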

How the results depend on the processing

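The 6 members other than *CML39* that were called kept their call in all 8 fits that left out a library and in all 6 other alternatives, with log2 fold changes between 3.31 and 3.76 for *CML37*, 1.85 and 1.97 for *CML38*, 2.08 and 2.27 for *PBP1*, 1.11 and 1.27 for *CML12*, 1.14 and 1.31 for *CML23* and 1.02 and 1.14 for *CML24* when a library was left out. *CML41*, *CML42* and *CML9* were called in none of these fits. *CML39* also lost its call with no filter on low counts (1.72), and its values without a library ran from 1.41 to 1.91. Scaling by library totals alone moved the median of all genes to -0.052. With no fold change threshold, 2204 genes were called higher and 1766 lower over all genes, and 24 and 5 in the lists outside the members. Without a library, 901 to 994 genes were called higher, 327 to 426 lower, and 13 to 15 of the listed genes higher. The median correlation of the deviations then ran from 0.202 to 0.393.

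Mock and DEX libraries of the same number did not deviate together (correlations 0.023, 0.119, 0.108 and -0.045 for numbers 1 to 4), and not every library correlated best with its own number. With the replicate number as a block, 983 genes were called higher and 387 lower, 13 of the listed genes higher and 1 lower. The call of *CML39* was lost (1.76). The block lowered the SE of *CML38* (0.08 to 0.05), *CML37* (0.29 to 0.22), *PBP1* (0.12 to 0.09), *CML24* (0.08 to 0.06) and *CML23* (0.09 to 0.07). It also lowered that of *CML12* and *CML9* slightly, and raised that of *CML39*, *CML41* and *CML42*. Whether the members follow the replicate number was not tested.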
